A study of Mus musculus with 2 samples.

Results

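The 10 genes described here belong to cytokine signalling and were followed in Phf6 knockout (KO) and Phf6 wild-type (WT) mouse blood progenitors. They are the kinase genes Jak1 and Jak2, the transcription factor genes Stat3, Stat5a and Stat5b, the inhibitor genes Cish, Socs1, Socs2 and Socs3, and the kinase gene Pim1. They were chosen by symbol from the 32285 genes listed in both libraries, and all 10 had counts in KO and in WT. In KO and in WT, marrow cells had received a vector with the truncated RUNX1 mutant S291fs and GFP, and GFP-positive cells had been transplanted. Lineage-negative, GFP-positive cells were sorted from the marrow of recipients 8 weeks later and profiled with a droplet 3′ kit, 1 library per genotype. The labels give neither the deleted part of Phf6, the promoter of the vector, the recipient strain nor the number of animals in a library.

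The cytokine receptors of this pathway have no kinase of their own and carry JAK kinases on their inner side. A bound cytokine activates the JAKs, which phosphorylate STAT proteins, and the STATs enter the nucleus and switch on target genes. CISH and the SOCS proteins are targets that feed back on the receptor or the JAK, and Pim1 is a target that encodes a growth and survival kinase. In marrow, thrombopoietin, erythropoietin, interleukin-3 and GM-CSF act through JAK2 and mainly STAT5, G-CSF and interleukin-6 mainly through STAT3, and interferon-gamma through JAK1 and JAK2.

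After filtering, 4709 KO cells with a median of 21421 unique molecular identifiers (UMIs, counted RNA molecules) were set against 4478 WT cells with a median of 24814. Levels are counts per 1000000 UMIs (CPM), summed over all cells of a library, and a difference is the log2 ratio of KO over WT CPM. Each ratio has an exact 95% interval that covers counting error only. With 1 library per genotype there was no test between genotypes, and the spread between mice is unknown. Phf6 itself stood at 20.6 CPM in KO and 41.8 CPM in WT, and was lower in KO in 20 of 21 clusters. The exception was cluster 16, the basophil or mast cell-like class, with a log2 ratio of 0.075 and an interval that included 0. The libraries shared 7 barcodes among the cells kept. Although lineage-negative cells had been sorted, erythroid-like cells (88 KO and 252 WT), B cell-like cells (51 and 68) and other maturing cells were present.

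Promoter windows of 4 genes are shown because the genes moved differently. Over all cells Socs3, Pim1 and Socs1 stood higher in KO, and Cish stood lower. Each is a RefSeq window of GRCm38.p6 that runs from 250 bases before to 50 bases after a RefSeq start, on the gene's strand. Capitals mark matches to TTCNNNGAA, the palindrome that STAT proteins bind, and in Socs1 to GAAA, any 2 bases and GAAA again, the element of interferon regulatory factors, searched on both strands. Cish (window chr9:107296409-107296708, plus strand) held 2 matches, at window bases 251 and 262, at and just after that RefSeq start. The GENCODE start of Cish, 107296026, lies upstream of the whole window, so the window lies inside the GENCODE gene. Socs3 (chr11:117969317-117969616, minus strand) held 1 match at base 97. This window also lies inside the GENCODE gene, which starts at 117970047 on the minus strand. Sequence upstream of the GENCODE starts of Cish and Socs3 was not searched. Socs1 (chr16:10785487-10785786, minus strand) held 2 overlapping interferon-type matches, at bases 168 and 174. Pim1 has 2 windows in the table, and the one shown (chr17:29490535-29490834, plus strand) and the other held neither motif.
Cish: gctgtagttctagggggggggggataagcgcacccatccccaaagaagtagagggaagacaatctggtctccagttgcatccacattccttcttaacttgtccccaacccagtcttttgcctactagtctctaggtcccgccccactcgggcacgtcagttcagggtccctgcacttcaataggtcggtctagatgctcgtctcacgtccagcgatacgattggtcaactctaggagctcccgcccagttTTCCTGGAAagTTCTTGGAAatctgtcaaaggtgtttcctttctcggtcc
Socs3: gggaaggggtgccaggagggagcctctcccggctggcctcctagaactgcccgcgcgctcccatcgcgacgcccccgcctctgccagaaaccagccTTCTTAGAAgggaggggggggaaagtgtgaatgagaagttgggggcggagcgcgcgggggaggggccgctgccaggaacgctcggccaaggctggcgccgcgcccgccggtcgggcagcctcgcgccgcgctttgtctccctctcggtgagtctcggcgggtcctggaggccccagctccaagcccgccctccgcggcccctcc
Socs1: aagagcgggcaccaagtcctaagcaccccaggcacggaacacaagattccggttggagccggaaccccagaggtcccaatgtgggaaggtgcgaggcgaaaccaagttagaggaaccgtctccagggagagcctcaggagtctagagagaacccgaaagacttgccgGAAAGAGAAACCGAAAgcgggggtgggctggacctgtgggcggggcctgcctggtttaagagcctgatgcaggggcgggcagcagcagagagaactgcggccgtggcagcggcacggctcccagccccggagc
Pim1: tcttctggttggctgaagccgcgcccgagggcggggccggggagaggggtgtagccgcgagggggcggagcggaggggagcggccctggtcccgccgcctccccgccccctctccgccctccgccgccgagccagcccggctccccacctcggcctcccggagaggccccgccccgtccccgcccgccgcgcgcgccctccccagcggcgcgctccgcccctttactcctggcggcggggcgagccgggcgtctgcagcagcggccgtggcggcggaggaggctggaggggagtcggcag
Of the 10 genes, 9 had a window in the table, 2 of them with the STAT palindrome. Over all 32851 windows of the table, 8.30% held the palindrome, 0.457% held it in 2 or more places and 3.44% held the interferon-type element. A match is a description of letters, and binding was not measured.

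Over all cells, 7 of the 10 genes had a mean of at least 10 CPM, the minimum set for calling a difference of 1.5-fold. Socs3 and Pim1 were higher in KO by that measure and none of the 7 was lower. The minimum applies to the mean of both libraries, so a gene can pass through one library, as Socs3 did with a WT level under 10 CPM. Of all 8584 genes at that minimum, 2.04% were higher by 1.5-fold and 1.25% were lower. The median log2 ratio of the 7 genes was 0.31, against 0.06 over all genes tested. Cish, Socs1 and Socs2 lay under the minimum and are given by their counts.

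**Figure D1:**
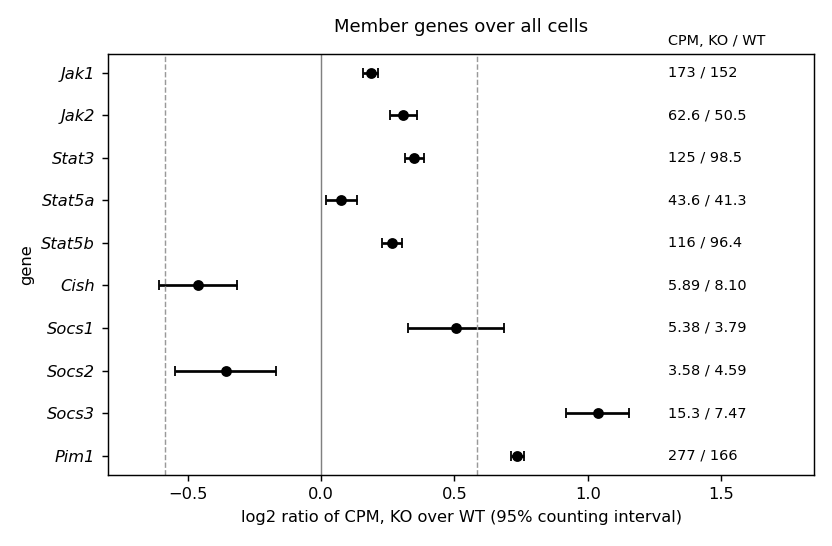
Log2 ratio of CPM, KO over WT, over all cells for each gene (points) with its exact 95% counting interval (bars); the dashed lines stand at 1.5-fold and the columns on the right give CPM in KO and WT. Socs3 (1.04) and Pim1 (0.74) lie right of the 1.5-fold line, and Cish (-0.46) and Socs2 (-0.36) lie left of 0.

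The JAK kinase genes differed little. Jak1 (ENSMUSG00000028530, GRCm38 chromosome 4, 101152367 to 101265282, minus strand), which serves interferon, interleukin-6 family and common gamma chain receptors, stood at 173 CPM in KO and 152 CPM in WT, a log2 ratio of 0.19 (0.16 to 0.21). Jak2 (ENSMUSG00000024789, chromosome 19, 29251828 to 29313080, plus strand), which serves the receptor of erythropoietin, stood at 62.6 CPM in KO and 50.5 CPM in WT, a log2 ratio of 0.31 (0.26 to 0.36). After each cell was thinned to 5000 UMIs, 26.5% of KO and 22.2% of WT cells held a Jak2 UMI (65.0% and 62.8% without thinning).

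Across classes of cells, both kinases were lowest in neutrophil-like and highest in basophil or mast cell-like cells, in each library. Jak2 ran from 31.5 CPM in neutrophil-like KO cells to 282 CPM in basophil or mast cell-like KO cells, and from 24.9 to 344 CPM over the same classes in WT. Among clusters with at least 50 cells per library, its KO level was higher still, at 351 CPM, in cluster 15. This cluster, part of the megakaryocyte-like class, had low RNA content (median 5230 KO and 3540 WT UMIs per cell). It was led by the platelet genes Slc6a4 and Tubb1. Erythroid-like cells had the highest ratios of KO over WT among the 8 classes for both kinases. Jak2 stood there at 55.2 CPM in KO and 35.1 CPM in WT, a log2 ratio of 0.65 (0.43 to 0.88; 244 and 521 UMIs), and Jak1 at 172 and 121 CPM, a log2 ratio of 0.50 (0.38 to 0.63). In basophil or mast cell-like cells both ratios were below 0, at -0.28 (-0.50 to -0.07) for Jak2 and -0.23 (-0.42 to -0.03) for Jak1. The median depth of erythroid-like cells was 44559 UMIs in KO and 60291 in WT, and its part in these ratios was not tested.

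Among the STAT genes, Stat3 had ratios above 0 in nearly every cluster. Stat3 (ENSMUSG00000004040, chromosome 11, 100885098 to 100939540, minus strand), the main factor behind G-CSF and interleukin-6, stood at 125 CPM in KO and 98.5 CPM in WT, a log2 ratio of 0.35 (0.31 to 0.39). By cluster the ratio was above 0 in 20 of 21 and ran from -0.11 to 0.45, with the interval above 0 in 12. None of those ratios reached 1.5-fold. Thinned cells with a Stat3 UMI made up 47.9% in KO and 40.7% in WT (87.0% and 82.7% unthinned). The lowest class was erythroid-like in each library, with 34.2 CPM in KO and 25.8 CPM in WT. Cluster 17, led by the monocyte genes Adgre4 and Fcgr4 and left unnamed, had the highest Stat3 level, 329 CPM in KO and 295 CPM in WT.

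The STAT5 factors, which mediate thrombopoietin, erythropoietin and interleukin-3, differed from each other. Stat5b (ENSMUSG00000020919, chromosome 11, 100780731 to 100850724, minus strand) stood at 116 CPM in KO and 96.4 CPM in WT, a log2 ratio of 0.27 (0.23 to 0.30). Stat5a (ENSMUSG00000004043, chromosome 11, 100859351 to 100885169, plus strand) stood at 43.6 CPM in KO and 41.3 CPM in WT, a log2 ratio of 0.08 (0.02 to 0.13). Stat5a overlaps Stat3 by 72 bases, tail to tail on opposite strands, and the sources used here do not name the counting strand, so reads there are uncertain. How reads split between the similar copies Stat5a and Stat5b was not examined. Among the 8 classes, Stat5a was highest in HSC/MPP-like cells, which resemble haematopoietic stem and multipotent progenitors, with 70.2 CPM in KO and 63.9 CPM in WT, and Stat5b in basophil or mast cell-like cells, at 167 CPM in KO and 191 CPM in WT. Among clusters, the unnamed cluster 1 had the highest Stat5a level, 105 CPM in KO and 92.0 CPM in WT, and cluster 17 the highest Stat5b level, 275 and 340 CPM. In erythroid-like cells Stat5b stood at 84.2 CPM in KO and 54.3 CPM in WT, a log2 ratio of 0.63 (0.45 to 0.81). Stat5a differed by 0.16 (-0.08 to 0.39) in the same cells.

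Over all cells, the inhibitor genes split into a pair that stood higher in KO, Socs3 and Socs1, and a pair that stood lower, Cish and Socs2. By cluster the lower pair went both ways. Among 21 clusters, the ratio was above 0 in 10 and below in 10 for Cish, and above in 10 and below in 11 for Socs2. Socs3 (ENSMUSG00000053113, chromosome 11, 117966079 to 117970047, minus strand), a STAT3 target that blocks the receptors of G-CSF and interleukin-6, had 1690 UMIs in KO and 888 in WT. That is 15.3 CPM in KO and 7.47 CPM in WT, a 2.05-fold difference and a log2 ratio of 1.04 (0.92 to 1.16). After thinning, 8.36% of KO cells (7.57 to 9.21) and 4.06% of WT cells (3.49 to 4.70) held a Socs3 UMI, and the cells that did held 1.28 and 1.23 UMIs on average. Unthinned, the shares were 21.2% in KO and 12.1% in WT. In basophil or mast cell-like cells, a type with almost no Socs3 UMIs, 0 of 73 KO cells held one, which allows a share of cells with a UMI of up to 4.11% and sets no limit on cells that express the gene, and 0.962% of 104 WT cells did. Those cells had a median of 12188 UMIs in KO and 11542 in WT.

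Socs3 was high in the stem-like end of the map, in platelet-like cells and in cluster 17, and nearly absent from erythroid-like cells. The unnamed cluster 17, led by monocyte genes, ranked just behind cluster 15 in KO, and behind clusters 15 and 1 in WT. HSC/MPP-like cells had 22.4 CPM in KO and 10.6 CPM in WT, a log2 ratio of 1.09 (0.85 to 1.33), or 1.15 with the unnamed cluster 1 added. Monocyte-like cells had 7.54 and 3.96 CPM, a log2 ratio of 0.93 (0.55 to 1.32). Megakaryocyte-like cells stood at 22.4 CPM in KO and 21.6 CPM in WT, a log2 ratio of 0.05 (-0.23 to 0.33). That class includes the low-RNA cluster 15, at 113 CPM in KO and 100 CPM in WT. Erythroid-like cells had 2 UMIs in KO and 9 in WT. The ratio was above 0 in 17 of 21 clusters, with the interval above 0 in 10. Of the 8 clusters with at least 10 CPM in each library, 5 were higher in KO by 1.5-fold, and 3 more, clusters 7, 8 and 9, passed the minimum on the mean while WT was under 10 CPM. Over all genes 5.60% of gene and cluster pairs were higher and 4.54% lower. The Socs3 ratio was largest in cluster 9, led by Il1rl1 and Slc45a3, with 17.5 CPM in KO and 4.98 CPM in WT, and in cluster 8, a dividing HSC/MPP-like cluster led by Pimreg and Aspm, with 15.7 and 4.52 CPM. Cluster 1, unnamed and led by Ror1 and Tox, had 50.9 CPM in KO and 25.0 CPM in WT. Cells with at least 5 Socs3 UMIs numbered 41 in KO, with 251 UMIs, and 23 in WT, with 146 UMIs, and without them the level was 13.2 CPM in KO and 6.27 CPM in WT.

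**Figure D2:**
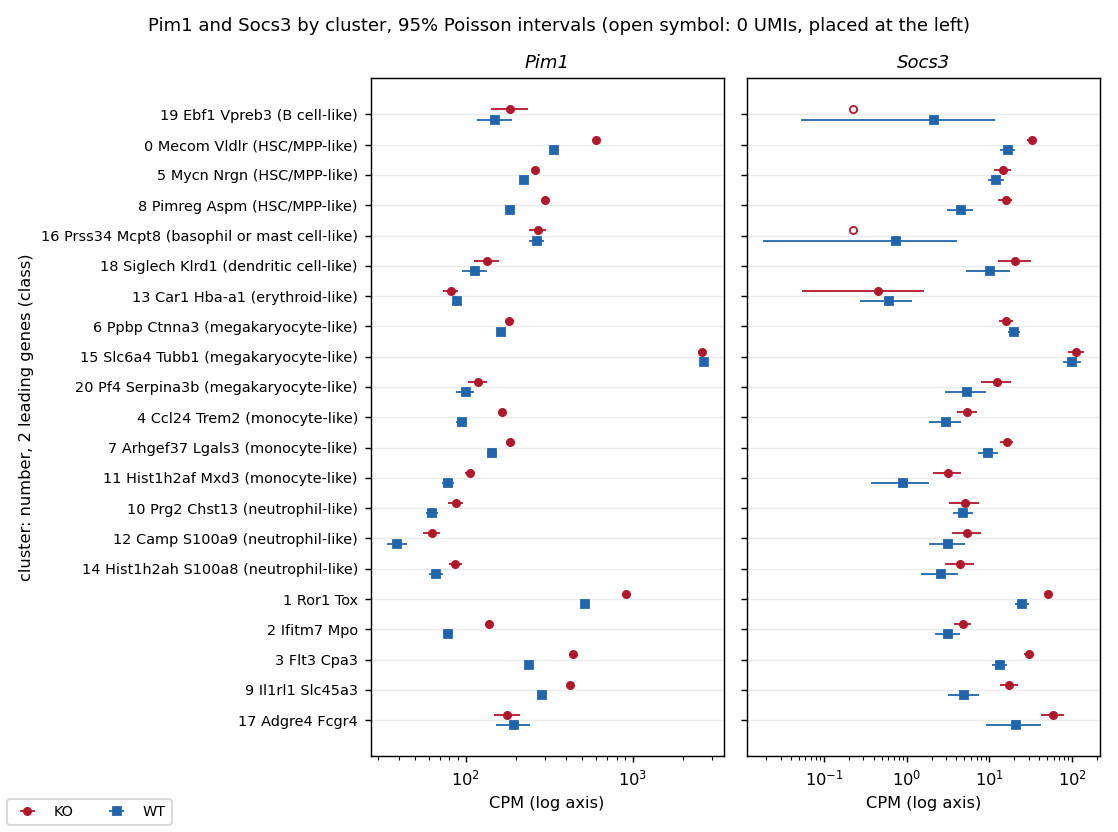
CPM of Pim1 and Socs3 (log axes) in each of the 21 clusters, KO (circles) above WT (squares), with exact 95% Poisson intervals; open circles mark 0 UMIs and have no place on the axis. For Pim1, cluster 15 lies far right of the others in KO (2590) and WT (2676), and KO lies right of WT in clusters 0 to 4. For Socs3, the erythroid-like and basophil or mast cell-like clusters lie far left.

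Socs1 (ENSMUSG00000038037, chromosome 16, 10782240 to 10785536, minus strand), an inhibitor of JAK kinases that interferon-gamma induces, had 593 UMIs in KO and 450 in WT. It stood at 5.38 CPM in KO and 3.79 CPM in WT, a log2 ratio of 0.51 (0.33 to 0.69). Monocyte-like cells had 6.09 CPM in KO and 2.59 CPM in WT, a log2 ratio of 1.23 (0.77 to 1.71; 155 and 53 UMIs). Within that class the difference was widest in cluster 7, led by Arhgef37 and Lgals3, with 10.4 CPM in KO and 1.49 CPM in WT, from 72 and 8 UMIs, a log2 ratio of 2.80 (1.74 to 4.06). Its sister clusters 4 and 11 had 0.18 (-0.53 to 0.90) and 1.17 (0.27 to 2.13). HSC/MPP-like cells had 7.10 CPM in KO and 6.13 CPM in WT, an interval that included 0. No class lacked Socs1. In monocyte-like cells the thinned share was 3.17% in KO and 0.706% in WT (11.3% and 7.15% unthinned), and that WT share was the lowest of the 8 classes in WT. Over all thinned cells the share was 3.28% in KO and 1.96% in WT.

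Cish (ENSMUSG00000032578, chromosome 9, 107296026 to 107302784, plus strand), a STAT5 target that blocks STAT5 docking at cytokine receptors, had 649 UMIs in KO and 963 in WT. It stood at 5.89 CPM in KO and 8.10 CPM in WT, a log2 ratio of -0.46 (-0.61 to -0.32). Its level ran from 0.638 CPM in neutrophil-like to 25.9 CPM in megakaryocyte-like KO cells, and from 0.801 to 32.8 CPM over the same classes in WT. Cluster 15, part of the megakaryocyte-like class, stood above all, at 129 CPM in KO and 122 CPM in WT. In WT, megakaryocyte-like and erythroid-like cells held the most Cish UMIs of the classes, and in both the KO level was lower. Erythroid-like cells had 14.3 CPM in KO and 22.8 CPM in WT, from 63 and 338 UMIs, a log2 ratio of -0.67 (-1.09 to -0.28). Megakaryocyte-like cells had 25.9 and 32.8 CPM, a log2 ratio of -0.34 (-0.58 to -0.10), and in them the Pf4-rich cluster 20 had 7.71 CPM in KO and 21.1 CPM in WT, a log2 ratio of -1.45 (-2.38 to -0.61). HSC/MPP-like cells went the other way, with 7.99 CPM in KO and 6.13 CPM in WT, a log2 ratio of 0.38 (0.03 to 0.74). Erythroid-like cells were 1.87% of KO cells and 5.63% of WT cells. With the clusters of KO weighted by their share of UMIs in WT, the ratio over all cells was -0.29. Neutrophil-like cells, near 0 for Cish, had a UMI in 1.58% of KO and 2.52% of WT cells, at median depths of 33640 and 31579 UMIs, against 9.92% and 12.997% of all cells (3.104% and 3.64% thinned).

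Socs2 (ENSMUSG00000020027, chromosome 10, 95385362 to 95417180, minus strand), a STAT5 target best known for restraining growth hormone signalling, had 395 UMIs in KO and 546 in WT. It stood at 3.58 CPM in KO and 4.59 CPM in WT, a log2 ratio of -0.36 (-0.55 to -0.17). This sign depended on how the cells were weighted. Weighting the clusters alike in both libraries gave 0.10 and weighting the named classes alike gave 0.40. The WT share of UMIs kept the ratio below 0, at -0.14. Equal weights count small groups, such as B cell-like cells, as much as large ones. What lay behind the change of sign was not tested. HSC/MPP-like cells had 4.09 CPM in KO and 6.91 CPM in WT, a log2 ratio of -0.76 (-1.17 to -0.35; 83 and 133 UMIs). Its cluster 0, led by the stem cell gene Mecom and by Vldlr, had 3.32 CPM in KO and 9.14 CPM in WT, a log2 ratio of -1.46 (-2.19 to -0.76). Cluster 9 differed the other way, with 8.61 CPM in KO and 3.17 CPM in WT, a log2 ratio of 1.44 (0.49 to 2.46). Dendritic cell-like cells were among the highest, at 31.4 CPM in KO and 30.5 CPM in WT. Monocyte-like cells had almost none, with a UMI in 0.564% of KO and 0.421% of WT cells at median depths of 27985 and 27873 UMIs, against 5.37% and 8.22% of all cells (1.77% and 2.17% thinned).

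**Figure D3:**
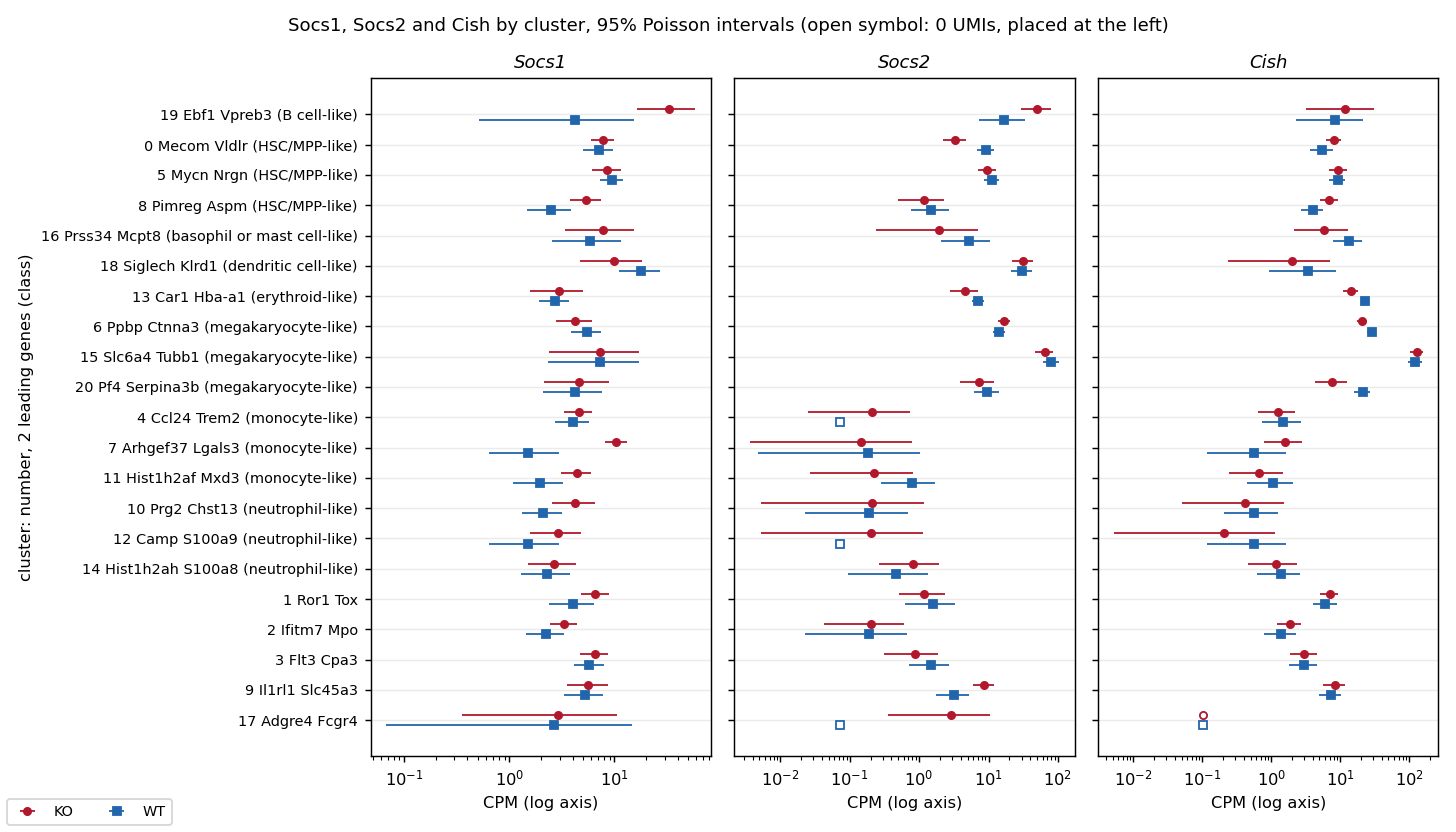
CPM of Socs1, Socs2 and Cish (log axes) in each of the 21 clusters, KO (circles) above WT (squares), with exact 95% Poisson intervals; open symbols mark 0 UMIs and have no place on the axis. Socs1 in cluster 7 (10.4 KO, 1.49 WT), Socs2 in cluster 0 (3.32 KO, 9.14 WT) and Cish in cluster 20 (7.71 KO, 21.1 WT) show intervals that do not overlap.

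Pim1 (ENSMUSG00000024014, chromosome 17, 29490753 to 29496112, plus strand) had 30579 UMIs in KO and 19789 in WT. It stood at 277 CPM in KO and 166 CPM in WT, a 1.67-fold difference and a log2 ratio of 0.74 (0.71 to 0.76). After thinning, 62.6% of KO and 48.9% of WT cells held a Pim1 UMI (90.0% and 83.3% unthinned), and those cells held 2.99 and 2.27 UMIs on average. So both the share of cells and the count per positive cell were higher in KO. No class lacked Pim1, and the lowest thinned shares were 26.2% of KO and 23.6% of WT neutrophil-like cells.

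The Pim1 difference was not the same size in every class. HSC/MPP-like cells had 418 CPM in KO and 241 CPM in WT, a log2 ratio of 0.79 (0.74 to 0.85), or 0.89 with cluster 1 added. Monocyte-like cells had 149 and 102 CPM, a ratio of 0.55 (0.47 to 0.63), and neutrophil-like cells 79.5 and 58.4 CPM, a ratio of 0.45 (0.33 to 0.56). Megakaryocyte-like cells had 347 CPM in KO and 312 CPM in WT, a ratio of 0.15 (0.08 to 0.22). That class includes the low-RNA cluster 15, at 2590 CPM in KO and 2676 CPM in WT. The ratio of the class without cluster 15 was not computed. In erythroid-like cells the ratio was -0.13 (-0.30 to 0.04) and in basophil or mast cell-like cells 0.01 (-0.22 to 0.24). By cluster, Pim1 was higher in KO by 1.5-fold in 7 of 21, with intervals above 0 in 14. The ratio was 0.88 (0.79 to 0.96) in cluster 3, led by Flt3 and Cpa3, with 437 CPM in KO and 238 CPM in WT. Cluster 0 had 606 and 336 CPM, and cluster 1 had 909 and 515 CPM. These 3 clusters, high in Pim1, held 335, 516 and 505 KO cells and 300, 292 and 282 WT cells. With KO clusters weighted by their WT share of UMIs, the ratio over all cells was 0.52 for Pim1, under 1.5-fold, and 0.75 for Socs3. With clusters weighted alike it was 0.30 for Pim1 and 0.69 for Socs3, and with classes weighted alike 0.32 and 0.55, both under 1.5-fold. The class weighting left out unnamed cells, 34.6% of KO and 27.8% of WT cells, clusters 1 and 3 among them. Equal weighting averages CPM over groups before the ratio is taken. Cluster 15, with the highest Pim1 level, therefore weighs heavily in the cluster mean. The median of the 21 cluster ratios was 0.38 for Pim1. Without cluster 15 the ratio over all other cells was 0.79 for Pim1 and 1.09 for Socs3.

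Unnamed clusters, which held 34.6% of KO and 27.8% of WT cells, lie outside the named classes. Within the 8 named classes with at least 50 cells per library, 8 gene and class pairs at the minimum level were higher in KO by 1.5-fold and 3 were lower. HSC/MPP-like cells had 2 such genes, Socs3 and Pim1, both higher, where 3.73% of all genes were higher and 1.28% lower. Erythroid-like cells had Jak2 and Stat5b higher and Cish lower, where 6.08% of all genes were higher and 0.807% lower. Each of these erythroid-like calls fell under 1.5-fold in at least 1 other processing setting. Monocyte-like, neutrophil-like and megakaryocyte-like cells had none, where 1.31%, 1.23% and 1.34% of all genes were higher and 0.645%, 1.09% and 1.18% lower. The other pairs came from classes with under 110 cells in each library, in which many genes passed 1.5-fold. In B cell-like cells Socs1 (11 UMIs in KO, 2 in WT) and Socs2 (17 and 8) were higher and Stat5a (5 and 11) lower, where 17.7% of all genes were higher and 21.0% lower. In dendritic cell-like cells Socs3 (21 and 12) was higher and Socs1 (10 and 21) lower, where 11.2% were higher and 9.27% lower. In basophil or mast cell-like cells Stat5a (57 and 50) was higher, where 9.90% were higher and 8.59% lower. With so many genes past 1.5-fold in these classes, the pairs are given as values alone.

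**Figure D4:**
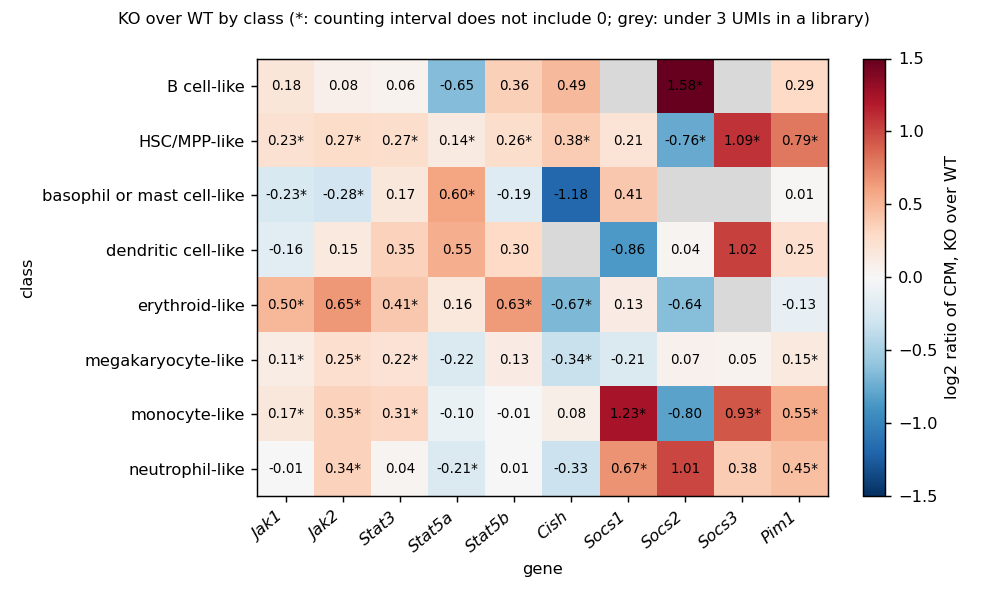
Log2 ratio of CPM, KO over WT, for each gene (columns) in each named class (rows), as colour and number; the colour scale ends at -1.5 and 1.5, a star marks an exact 95% counting interval without 0, and grey marks under 3 UMIs in a library. Stars in the HSC/MPP-like row include Socs3 (1.09), Pim1 (0.79), Cish (0.38) and Socs2 (-0.76). Those in the erythroid-like row include Jak2 (0.65), Stat5b (0.63) and Cish (-0.67). Other rows hold stars too. Intervals lay above 0 in 5 classes for Jak2, 4 for Pim1 and 2 each for Socs3 and Stat5b, and below 0 in 2 for Cish.

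Across the 21 clusters, members varied together to different degrees. As a description over clusters that share libraries and depth, log2 CPM of Jak1 and Stat5b correlated at 0.81 in KO and 0.79 in WT, of Stat3 and Socs3 at 0.70 and 0.74, and of Socs3 and Pim1 at 0.63 and 0.72. Jak2 and Stat5a correlated at 0.30 in KO and 0.17 in WT, the lowest of the WT values. The gene most like Pim1 was Maml3 (0.91 in KO, 0.91 in WT), followed by Txnip (0.89 and 0.88). The gene most like Socs3 was Mib1 (0.86 and 0.84). For Jak1 it was Pcmtd2, for Jak2 Ctnna1, for Stat3 Neurl3, for Stat5a Zkscan1 and for Stat5b Mbtd1, with values between 0.87 and 0.94.

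Other genes of the pathway were taken from lists. Over all genes at the minimum, 2.04% were higher by 1.5-fold and 1.25% lower, to set beside each count over all cells. Of 11 further JAK, STAT, SOCS and Pim genes, all at the minimum level, 2 were higher in KO by 1.5-fold and 0 were lower, with a median log2 ratio of 0.27. They were Pim2, a relative of Pim1 (16.2 CPM in KO and 5.95 CPM in WT, a ratio of 1.45, 1.32 to 1.58), and Stat2, which serves type I interferons (22.03 and 12.58 CPM, 0.81). Jak3 differed by 0.48. Pim2 passed the minimum with WT under 10 CPM, and of the 9 genes at 10 CPM or more in each library 1 was higher. Of 23 JAK-coupled receptor genes, 19 were at the minimum, 4 were higher and 2 lower, with a median of 0.31. Il4ra, a chain of the interleukin-4 receptor, stood at 18.4 CPM in KO and 10.1 CPM in WT, a ratio of 0.86 (0.76 to 0.97). Csf2rb (0.67) encodes the chain shared by the receptors of interleukin-3, interleukin-5 and GM-CSF, and Csf2rb2 (1.18) a chain that in mice serves interleukin-3 alone. They are near-identical copies, so each value is uncertain singly. The 2 lower ones were Ghr, the growth hormone receptor, at 9.23 CPM in KO and 14.2 CPM in WT, and Epor, the erythropoietin receptor, at 8.87 and 13.6 CPM, named here because of its value. In erythroid-like cells Epor stood at 75.2 CPM in KO and 72.1 CPM in WT. Over all cells Csf2rb2 passed the minimum with WT under 10 CPM, and Ghr and Epor with KO under it. Of the 16 receptor genes at 10 CPM or more in each library, 3 were higher.

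Inhibitors other than SOCS, 13 of 14 at the minimum, had 1 gene higher and 0 lower, with a median of 0.25. It was Usp18, which restrains interferon receptors, at 14.5 CPM in KO and 7.27 CPM in WT, a ratio of 1.00 (0.88 to 1.12). Usp18 passed the minimum with WT under 10 CPM, and of the 12 genes at 10 CPM or more in each library 0 were higher. Sh2b3 (0.35), Ptpn1 (0.34) and Ptprc (0.31) lay within 1.5-fold. The STAT5 targets other than members, 14 of 18 at the minimum, had 2 higher and 0 lower, with a median of 0.20, namely Id1 (0.86) and Bcl6 (0.59). Tfrc, the transferrin receptor, and Ccnd2, a cyclin, had ratios of -0.41 and -0.40. The STAT3 targets, 13 of 16 at the minimum, had 3 higher and 0 lower, with a median of 0.19. They were Lcn2, a neutrophil iron-binding protein (143 CPM in KO and 50.3 CPM in WT, 1.51), Bcl3 (0.88) and Il4ra (0.86), while Cebpd had 0.41.

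Interferon-gamma targets stood furthest from the rest, with 8 of 16 genes at the minimum higher in KO, 0 lower, and a median of 0.65. Iigp1 and Gbp5 passed through KO, with WT under the minimum, and of the 14 genes at 10 CPM or more in each library 6 were higher. All 20 listed genes, whatever their level, had a ratio above 0, with a median of 0.69. Iigp1, an interferon-induced GTPase, had 28.6 CPM in KO and 4.74 CPM in WT, a ratio of 2.60 (2.47 to 2.73). Gbp5 had a ratio of 1.05, Gbp2 0.93 and Igtp 0.82. The same list had 13 of 17 genes higher in HSC/MPP-like cells (median 0.81), 9 of 16 in monocyte-like cells (0.69) and 10 of 11 in erythroid-like cells (1.02). Of all genes, 3.73%, 1.31% and 6.08% were higher there. Some of these passed the minimum with WT under 10 CPM: Irf8, Gbp5 and Irgm2 in HSC/MPP-like cells. So did Iigp1, Cxcl10 and Igtp in monocyte-like cells, and Iigp1, Irf1 and Stat2 in erythroid-like cells. The list had 2 of 10 in megakaryocyte-like cells (0.27), 2 of 13 in neutrophil-like cells (0.32) and 4 of 13 in basophil or mast cell-like cells (0.22). Of all genes, 1.34%, 1.23% and 9.90% were higher in those. Immediate early genes, which respond to cell handling, had 0 of 13 higher and 0 lower over all cells, with a median of 0.00, and Egr1 stood at 16.5 CPM in KO and 23.4 CPM in WT. Within classes their median was -0.29 in megakaryocyte-like cells (3 of 13 lower), -0.26 in monocyte-like cells (2 of 15), -0.27 in neutrophil-like cells (1 of 12), -0.71 in basophil or mast cell-like cells (8 of 13) and -0.02 in HSC/MPP-like cells (0 of 13). Of all genes, 1.18%, 0.645%, 1.09%, 8.59% and 1.28% were lower in those classes, in the same order. In erythroid-like cells the genes at the minimum went both ways. Fosb had 0.36, Fos 0.35, Jun 0.04, and Jund, Ier2 and Ier5 0.02 each. Klf6 had -0.32, Junb -0.43, Btg2 -0.54 and Dusp1 -0.88. B cell-like cells also had ratios of both signs, such as Jun (0.52) and Fos (-0.56). The part of these differences in the ratios above was not tested.

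**Figure D5:**
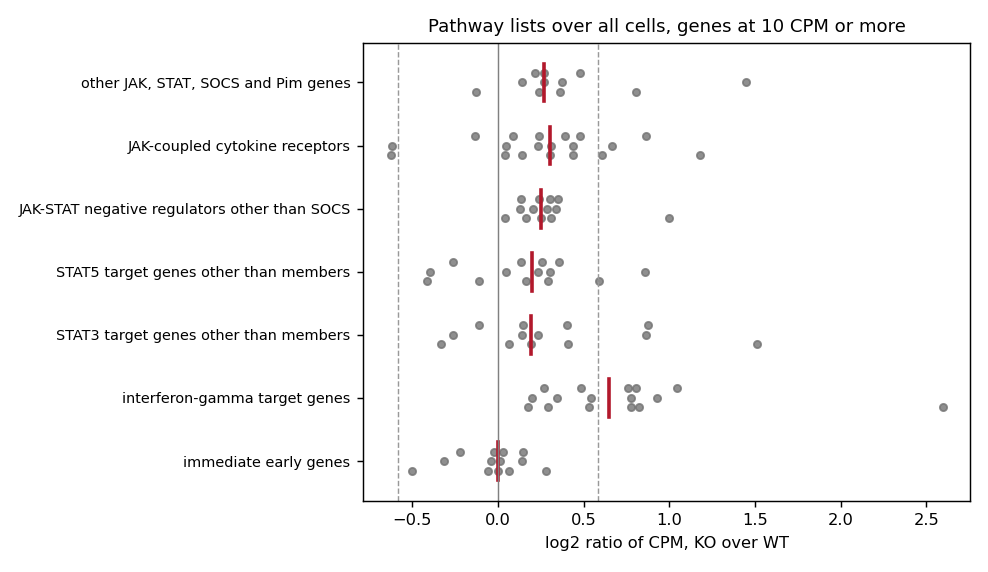
Log2 ratio of CPM, KO over WT, over all cells for each gene of 7 pathway lists at 10 CPM or more (grey points), with the list median as a red bar and dashed lines at 1.5-fold. The median of the interferon-gamma targets (0.65) lies right of the 1.5-fold line, and the other 6 medians lie between 0.00 and 0.31.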

How the data were processed

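The authors deposited raw UMI counts by gene and barcode. Per the file headers Cell Ranger 6.0.2 made them. Version 3.0.1 and the build GRCm38 are named in the submitters' processing notes. The libraries held 5260 KO and 5287 WT barcodes with 120408100 and 131667969 UMIs. Barcodes with fewer than 500 genes (32 KO, 51 WT) or more than 10% mitochondrial UMIs (298, 534) were left out, and likely doublets, 221 and 224 barcodes, were removed by Scrublet score at 0.8% per 1000 barcodes. The 4709 KO and 4478 WT cells left held 110257800 and 118878655 UMIs.

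Both libraries were clustered together (scanpy 1.11.5): 2000 variable genes without the 10 members, 30 components, 15 neighbours and Leiden resolution 1. Cish, Pim1, Socs2 and Socs3 would otherwise have been among the variable genes. A class name needed a median log2 fold of its markers of at least 1 and at least 3 markers detected in 25% of cells. No name was given where another class had more markers among the top 10 genes (cluster 1, otherwise HSC/MPP, with 505 KO and 282 WT cells), or where none of its own stood there and a second class also passed (cluster 17). A name ends in "like" because it rests on RNA alone. Classes and clusters were compared at 50 or more cells per library, which left out plasma cell-like cells (0 KO, 53 WT) and cluster 21.

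UMIs were summed, and ratios have exact conditional binomial, levels exact Poisson and shares exact Clopper-Pearson 95% intervals. UMIs set at 0 have a limit of 3 counts. Shares were also computed after thinning to 5000 UMIs, which left out 199 KO and 243 WT cells. Levels of different genes were not compared. Correlations used log2(CPM + 1). All 10 members were named, with up to 4 genes per list by size of the log2 ratio at 10 CPM or more and the 3 genes most like each member at that level. A few genes of the lists are not reported here and were taken out of the counts. The members and lists were chosen with earlier results of these data known. The interval was tested on simulated data. Positions came from GENCODE M21. Alternatives were scaled with edgeR 4.0.16 among others.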

Additional observations from a re-analysis of the deposited data

Results flagged for a closer look

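In 5 of the 10 genes, a class with the whole counting interval of the KO over WT log2 ratio above 0 stood beside a class with the whole interval below 0. These differences between classes were not tested, since each genotype has 1 library. The share of all genes that meet this rule was not computed, so nothing is read from the count.

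Jak1 had a ratio of 0.50 (759 KO and 1801 WT UMIs) in erythroid-like cells and -0.23 (357 and 555) in basophil or mast cell-like cells. Jak2 had 0.65 (244 and 521) in erythroid-like cells and -0.28 (289 and 467) in basophil or mast cell-like cells. Stat5a had 0.60 (57 and 50) in basophil or mast cell-like cells and -0.21 (330 and 549) in neutrophil-like cells. Cish had 0.38 (162 and 118) in HSC/MPP-like cells and -0.67 (63 and 338) in erythroid-like cells. Socs2 had 1.58 (17 and 8) in B cell-like cells and -0.76 (83 and 133) in HSC/MPP-like cells. The lower bounds of the intervals were 0.29 for Socs2 in B cell-like cells and 0.02 for Stat5a in basophil or mast cell-like cells. Phf6 itself was not lower in KO in basophil or mast cell-like cells, with a ratio of 0.075.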

How the results depend on the processing

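Over all cells, 2 members were higher by 1.5-fold, and this was 1 with clusters weighted alike or KO clusters weighted by the WT share of UMIs, and 0 with classes weighted alike. The class weighting left out unnamed cells, and cluster 15 weighed heavily in the cluster weighting for Pim1. The log2 ratio kept its sign under each setting tried for Socs3 (0.55 to 1.09), Pim1 (0.30 to 0.79), Socs1 (0.40 to 0.67), Cish (-0.54 to -0.12), Stat3 (0.18 to 0.37), Stat5b (0.07 to 0.28), Jak1 (0.05 to 0.21) and Jak2 (0.05 to 0.33), but not for Socs2 (-0.44 to 0.40) and Stat5a (-0.01 to 0.18). Within classes, the 8 pairs higher in KO were 5 with TMM or median of ratios scaling and 17 with classes by marker score per cell, and the 3 lower pairs were 0 with doublets kept or with marker scores. Socs1 in dendritic cell-like cells (-0.86) turned to 0.50 with doublets kept and at resolution 2, 0.64 with marker scores and 0.068 without cells of 5 or more Socs1 UMIs. Stat5a in B cell-like cells (-0.65) turned to 0.071 as a mean per cell and 0.77 with marker scores. In erythroid-like cells Jak2 ran from 0.46 to 0.72, Stat5b from 0.48 to 0.70 and Cish from -0.90 to -0.54. Each of these kept its sign but fell under 1.5-fold in at least 1 setting. In HSC/MPP-like cells Socs3 kept 0.91 to 1.31, Pim1 0.64 to 0.89 and Socs2 -1.12 to -0.64, and Socs1 in monocyte-like cells kept 0.75 to 1.37. Of the list entries, 20 (18 distinct genes, as Il4ra and Stat2 stand in 2 lists each) were higher and 2 lower, and 5 of the 20 had a WT level under 10 CPM. These counts were 8 and 1 with clusters weighted alike, and 2 and 0 at a minimum of 50 CPM, where fewer genes were tested, and the lower ones were 4 with no minimum. The cause of the other shifts was not tested. Adding cluster 1 to HSC/MPP-like cells, leaving out cluster 15, weighting by the WT share and leaving out cells with 5 or more UMIs were chosen after seeing the data. No paired analysis was possible because each genotype has 1 library. Depth limits Socs1, Socs2, Cish and Socs3, each with under 1000 UMIs in at least 1 library.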
